A study of Mus musculus with 10 samples.

Results

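The genes of the oligodendrocyte lineage and of myelin were followed by RNAseq and by ribosome footprinting (RF) in cortical cultures with and without KCl. The set held 33 genes chosen by name from the known biology of these cells, each represented by its Ensembl transcript with the highest mean RNAseq count. Transcripts of 30 of the 33 were listed, against 13189 genes in all (Lhfpl3, Myrf and Gjc3 were not analysed here). Of these 30 genes, 16 were measured, as were 4370 genes of the whole series. Measured means an RNAseq level and an RF level of at least 10 RPKM (reads scaled to sequence length and library size), reached together by 2 or more of the cultures. The chosen transcript of the other 14 did not reach this threshold, and its read counts are given instead. Mobp alone among these has a different transcript, with a short 3′UTR, that did reach it (54.3 RNAseq RPKM), so that 17 genes of the set have a measured transcript by the count that gives 4370.

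Cultures came from the cortex of newborn FVB mice, held neurons together with glia, and were grown for 7 days. Of the 5 used here, cultures 1, 2 and 3 were untreated, whereas cultures 4 and 5 received 55 mM KCl, which depolarizes neurons, for 3 h. All 5 received cycloheximide at 100 μg/ml for 7 min to hold ribosomes on the mRNA, and both libraries of a culture were made from the same lysate. RNAseq gives transcript abundance and was counted over the whole transcript. RF sequences the mRNA fragments that ribosomes protect and was counted over the coding sequence (CDS). Translation efficiency (TE) is the RF RPKM divided by the RNAseq RPKM of the same culture.

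Oligodendrocytes arise from precursor cells that carry the PDGF receptor and the NG2 proteoglycan on their surface and are specified by the Olig and Sox transcription factors. When a precursor leaves the cell cycle it passes through a short committed stage, marked by the receptor Gpr17 and by Bcas1, and then makes myelin, a stack of membrane rich in galactolipids and held together by proteins such as Mbp and Cnp. Several of these mRNAs, Mbp above all, are carried along the processes and translated near the growing myelin. Neuronal activity is known to influence the division and maturation of the lineage in vivo.

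RNAseq libraries held 3056286 to 3629959 reads and RF libraries 1463654 to 7719915, the shallowest being untreated culture 3 and KCl culture 4 (1608235). The labels name the cells neurons, yet the astrocyte filament gene Gfap stood at 1894 RNAseq RPKM in the untreated cultures and the neuronal tubulin Tubb3 at 88.1 RPKM. Precursor markers and myelin markers were both detected, so the cultures held RNA of more than 1 stage of the lineage. In bulk samples such as these, fewer cells of a type and less RNA per cell cannot be told apart. A check that the KCl treatment took effect is given by Fos, Nr4a2, Egr2 and Junb, immediate early genes of depolarization, which all rose in RNAseq and in RF. The p-values measure the spread between these 5 cultures only.

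Before any treatment, the measured genes spanned RNAseq levels from 10.8 RPKM (Ugt8a) to 1079 RPKM (Mbp), around a median of 21.5 RPKM for all measured transcripts. Mbp, the basic protein that compacts the cytoplasmic faces of myelin, stood at 1079 ± 82.4 RPKM (SD, n = 3), the 99.6th percentile of all measured transcripts. Bcas1 followed with 145 ± 15.3 RPKM, Olig1 with 141 ± 21.2 RPKM and Cnp, the myelin cyclic nucleotide phosphodiesterase, with 111 ± 4.69 RPKM. The cultures of Bcas1 and Olig1 overlap. The precursor receptor Pdgfra was low, at 12.2 ± 2.33 RPKM, and so was the myelin-associated glycoprotein Mag, at 14.6 ± 4.29 RPKM. Between these ends lay Ptprz1 at 74.3 RPKM, Nfasc at 45.4 RPKM, Cldn11 at 42.2 RPKM, Olig2 at 41.2 RPKM, Enpp2 at 35.1 RPKM, Gpr17 at 22.9 RPKM, Sox8 at 22.4 RPKM, Sox10 at 18.2 RPKM and Vcan at 17.5 RPKM. In this order the cultures of neighbours overlap from Nfasc down to Enpp2 and again from Gpr17 down to Ugt8a, so neighbours within these runs do not differ beyond their spread.

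TE did not follow abundance. Pdgfra, among the least abundant of the measured genes, had the highest TE, with 4.29, 6.22 and 4.88 in untreated cultures 1 to 3 (mean 5.13 ± 0.99, the 95.3th percentile). Gpr17 (4.20 ± 0.52), Cldn11 (4.19 ± 0.48), a claudin of the myelin tight junction, Ugt8a (3.69 ± 0.29), which makes galactosylceramide, and Mag (3.63 ± 1.62) followed. The TE of Mag rests on an uneven trio, since it was 5.50 in untreated culture 1 and 2.70 and 2.67 in the other two. Olig1 (0.71 ± 0.15), Bcas1 (0.86 ± 0.11), Nfasc (0.98 ± 0.09) and Olig2 (1.07 ± 0.13) stood at the low end, and Mbp was lowest with 0.33 ± 0.04, the 1.5th percentile. The median of the 16 genes was 2.40, beside 1.69 for all measured transcripts.

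**Figure D1:**
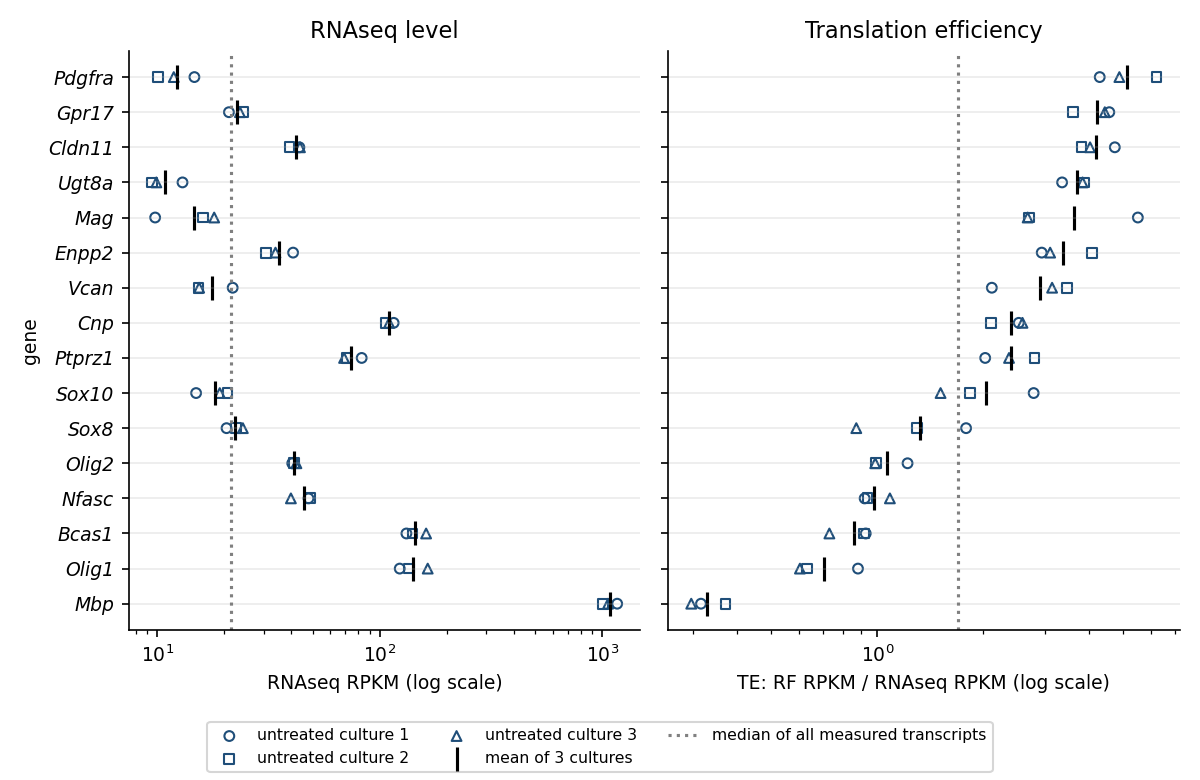
RNAseq level in RPKM (left, log scale) and TE (right, log scale) of the 16 measured genes in the 3 untreated cultures, with the mean as a bar and the median of all measured transcripts as a dotted line. Mbp is the most abundant at 1079 RPKM and has the lowest TE (0.33), while Pdgfra, at 12.2 RPKM, has the highest (5.13).

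Part of this order depends on which RNAseq reads stand in the denominator. The chosen Mbp transcript, ENSMUST00000102812, has no annotated UTR in the annotation used for lengths, so all its reads, 7155 of them counted as 3′UTR, were divided by a CDS of 573 nt. With ENSMUST00000080658, which has a 3′UTR of 1473 nt and shares most of the reads, Mbp stood at 307 ± 25 RPKM (98.5th percentile) with a TE of 1.38 ± 0.098 (37.2th percentile). Another Mbp transcript, ENSMUST00000091789, with a 3′UTR of 3935 nt and far fewer RNAseq reads (247 to 357 per library), had a TE of 10.6. The rank of Mbp in TE is thus set by the transcript taken. Its CDS footprints were 1028, 722 and 161 in untreated cultures, beside 1630, 1397 and 264 for the chosen transcript. Which of them came from other Mbp transcripts cannot be told, since reads with several alignments were kept. The value of 10.6 may therefore set shared footprints against the RNA of 1 transcript. Nfasc likewise has an annotated 3′UTR of only 86 nt. By ENSMUST00000094569, with a 3′UTR of 5730 nt, its level was 17.9 RPKM and its TE 2.26 ± 0.23, and by ENSMUST00000043189, with a 3′UTR of 1171 nt, its TE was 1.29 ± 0.12. These other transcripts were chosen after the values had been seen.

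The 2 Olig factors turn on the same point for another reason. Olig1 and Olig2 are basic helix-loop-helix factors that specify the lineage, and most of their RNAseq reads lay on the 3′UTR. Olig1 had 144 RNAseq reads on its 780 nt CDS and 4539 on its 3′UTR of 1274 nt, a density 19.4 times as high on the 3′UTR as on the CDS. For Olig2 these counts were 86 (969 nt) and 1519 (1306 nt), a ratio of 14.1. In all these ratios the 3′UTR also takes in the reads of a short region counted between CDS and 3′UTR. That region held 19 RNAseq reads for Olig1 and 119 for Olig2. Among 5853 measured transcripts with a 3′UTR of at least 300 nt the median ratio was 1.89 and the 90th percentile 6.37. Olig1 thus stood at the 98.4th percentile and Olig2 at the 97.3th. Footprints were placed the other way round, with 1575 on the CDS of Olig1 and 11 on its 3′UTR. This placement is not particular to Olig1, since 0.375% to 0.71% of all reads in the RF libraries lay on 3′UTRs. When TE was taken against RNAseq reads on the CDS alone, Olig1 moved from 0.71 to 8.35 ± 2.57 (94.4th percentile) and Olig2 from 1.07 to 7.33 ± 1.57 (92.4th percentile). By that measure Cldn11 was highest at 11.7 ± 1.55, Pdgfra stood at 7.05 ± 1.84, Mag at 7.08 ± 3.67, and Mbp (1.30 ± 0.16) and Bcas1 (1.32 ± 0.14) were lowest. Bcas1 thus had a low TE by both measures.

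**Figure D2:**
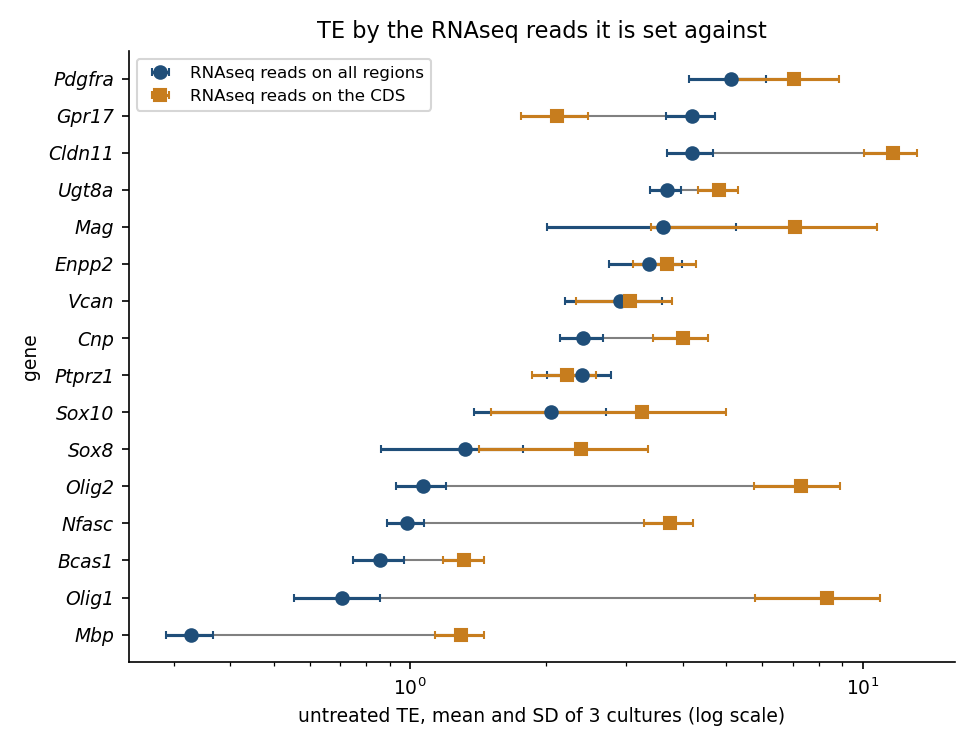
TE of the 16 measured genes in untreated cultures (log scale, mean and SD of 3), with RNAseq reads on all regions (circles) or on the CDS alone (squares) as the denominator, joined by a line for each gene. Olig1 moves from 0.71 to 8.35 and Olig2 from 1.07 to 7.33, whereas Bcas1 stays at the low end of the 16 genes at 0.86 and 1.32.

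Footprints outside the CDS singled out Mobp, a small basic protein of compact myelin. Its transcript ENSMUST00000093773 (chr9:120149742-120176091 of GRCm38, plus strand) has a 5′UTR of 139 nt and a CDS of 243 nt. The 5′UTR carried 71, 106 and 26 footprints in untreated cultures 1 to 3 and 22 and 34 in KCl cultures 4 and 5. The CDS carried 54, 27, 14, 11 and 10 in the same order. In each of the 5 libraries the 5′UTR therefore held more footprints than the CDS, and summed over them it held 259 against 116, at a density 3.9 times that of the CDS. The median ratio over 6445 measured transcripts with a 5′UTR of at least 50 nt was 0.354, and 14.7% of them exceeded 1. Set against these, Mobp stood at the 99.0th percentile, although its chosen transcript lay below the RPKM threshold and was not among them. RNAseq gave 15 reads on the same 5′UTR. The sum was 203 in the untreated cultures and 56 in the KCl cultures on the 5′UTR, and 95 and 21 on the CDS.

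The 5′UTR of Mobp holds 2 upstream AUG codons, which are printed below with the annotated start because they lie in the exon on which these footprints were counted. Bases are from GRCm38 with GENCODE M21 gene models, 5′ to 3′ in the sense of the transcript, with the codon in capitals.
Mobp upstream AUG 1 (chr9:120154703-120154705): aatcaaATGagagcaaga
Mobp upstream AUG 2 (chr9:120154754-120154756): gcacggATGaaaacccag
Mobp annotated start (chr9:120167805-120167807): cccagtgagATGagtcagaaa
The first of these opens a frame of 21 codons and the second a frame of 4 codons, and both close before the annotated start. Both lie in the exon at chr9:120154687-120154765, which is 79 nt long and untranslated. A Mobp transcript without that exon, ENSMUST00000111627, has the same CDS reads but only 9 footprints on its 5′UTR (3, 2 and 2 in the untreated cultures and 0 and 2 with KCl). Hence 250 of the 259 footprints, 96.5%, were counted only where the exon was included. Upstream AUGs as such are common, being present in 50.3% of the 7234 measured transcripts with both a start and a stop codon, and no footprint position within the exon was resolved by these counts.

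Among the other genes, Olig2 had 268 footprints on a 5′UTR of 252 nt and 917 on the CDS, a density ratio of 1.12. It holds a single upstream AUG, which opens a frame of 30 codons, shown here beside its start for comparison with Mobp.
Olig2 upstream AUG (chr16:91225574-91225576): gtgtggATGcttattaca
Olig2 annotated start (chr16:91226400-91226402): cctggggccATGgactcggac
Sox8 (1.09), Nfasc (1.08) and Sox10 (0.959) had ratios near that of Olig2, and neither Sox8 nor Sox10 has an upstream AUG, so a high ratio was found with and without such codons. Gpr37, with 21 upstream AUGs in a 5′UTR of 1633 nt, carried 85 footprints there. At the other end, Bcas1 had 0 footprints on its 88 nt 5′UTR against 4224 on the CDS, and also 0 RNAseq reads there. Neu4 had a ratio of 1.4, but 32 of its 156 nt are coding in another transcript of the gene.

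**Figure D3:**
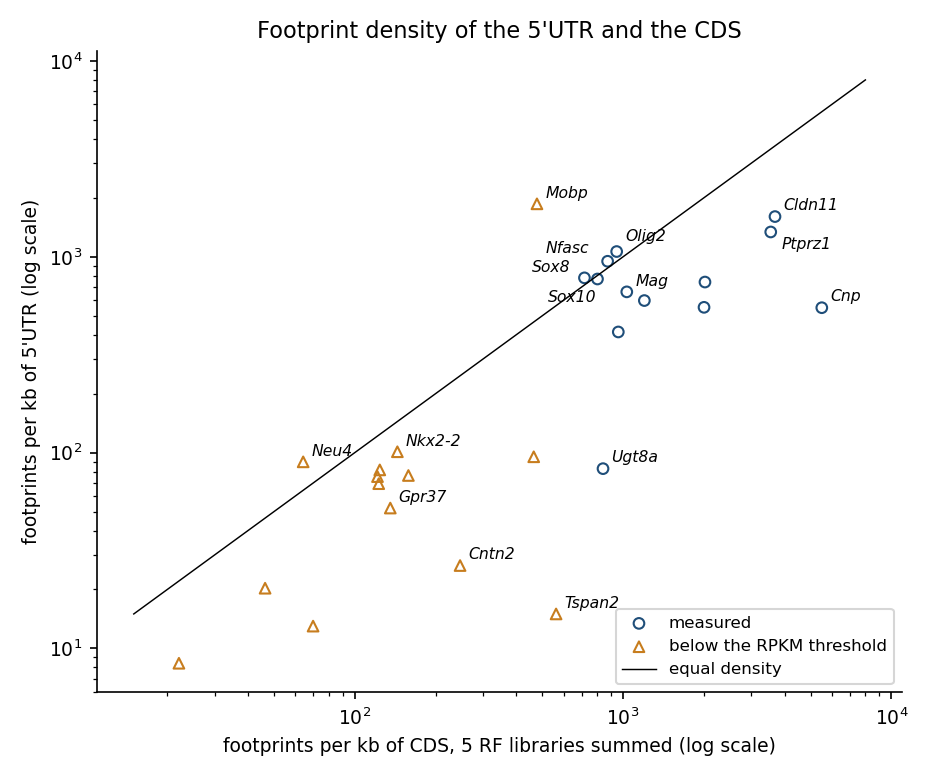
Footprints per kb of 5′UTR against footprints per kb of CDS (both log scale, 5 RF libraries summed) for genes with a 5′UTR of at least 50 nt and at least 1 footprint on it. Circles are measured genes, triangles genes below the RPKM threshold, and the line marks equal density. Mobp lies farthest above the line, with 259 footprints on 139 nt of 5′UTR.

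Mag, a glycoprotein of the membrane facing the axon, showed footprints beyond its stop codon. The deposited counts separate a short region between the CDS and the 3′UTR that the sources used here do not name. For Mag it held 38, 40 and 10 footprints in untreated cultures 1 to 3 and 5 and 21 with KCl, which is 5.25%, 8.08% and 8.13% of the CDS footprints in untreated and 3.65% and 6.5% in KCl cultures. The groups overlap. Over all 5 libraries it came to 114 footprints beside 1802 on the CDS, or 6.33%. Of 7903 transcripts with at least 500 CDS footprints, 57 (0.721%) reached 5%. The stop codon of Mag is shown with its flanks, on the minus strand.
Mag stop codon (chr7:30900364-30900366): gattgtcacTGAgagccccag
The next stop in the same frame lies 177 nt downstream, and 165 nt of this stretch are coding in other annotated Mag transcripts. The bounds of the unnamed region are not given in the sources used here, so that it covers this stretch is an inference from read counts and lengths. The inference has an exception. Of 205 transcripts examined with 0 nt before the next in-frame stop, 77.1% had RNAseq reads in the region, beside 0.773% of 647 with 3 to 26 nt. Reads of the other Mag transcripts and reads past the stop codon cannot be told apart in these counts.

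For the response to KCl, levels are given as normalized CPM (reads scaled to library size by the trimmed mean of M values), and changes as log2 fold changes of KCl over untreated with an approximate standard error and the adjusted p of edgeR's quasi-likelihood test (Benjamini-Hochberg over 7262 measured transcripts). In RNAseq 5 of the 16 measured genes fell and 0 rose (31.2% called), beside 33% of all measured transcripts called in either direction, 15.1% lower and 17.9% higher. At an unadjusted p under 0.05 still 0 rose, and DESeq2 also called 0 higher. In RF 4 fell and 2 rose (37.5%), beside 40.9% of all, 20.1% lower and 20.8% higher. In TE 1 rose (6.25%) and 0 fell, beside 5.8% of all, 1.53% higher and 4.27% lower. DESeq2 called 0 in TE in either direction, and at an unadjusted p under 0.05 edgeR had 2 higher (Vcan and Pdgfra) and 0 lower. Shares called in RNAseq, RF and TE were thus near those of all transcripts. For the 14 genes below the RPKM threshold the fits ran over the 22374 transcripts with at least 1 read. There edgeR called 0 of the 14 in RNAseq, with 2 at an unadjusted p under 0.05, beside 18.5% of all (10.1% higher, 8.4% lower). In RF it called 1 higher and 1 lower, beside 23.7% (12.3% higher, 11.5% lower). In TE it called 0, with 3 at an unadjusted p under 0.05, beside 1.76% (0.46% higher, 1.3% lower). DESeq2 called 0 of the 14 in RNAseq and in TE as well.

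**Figure D4:**
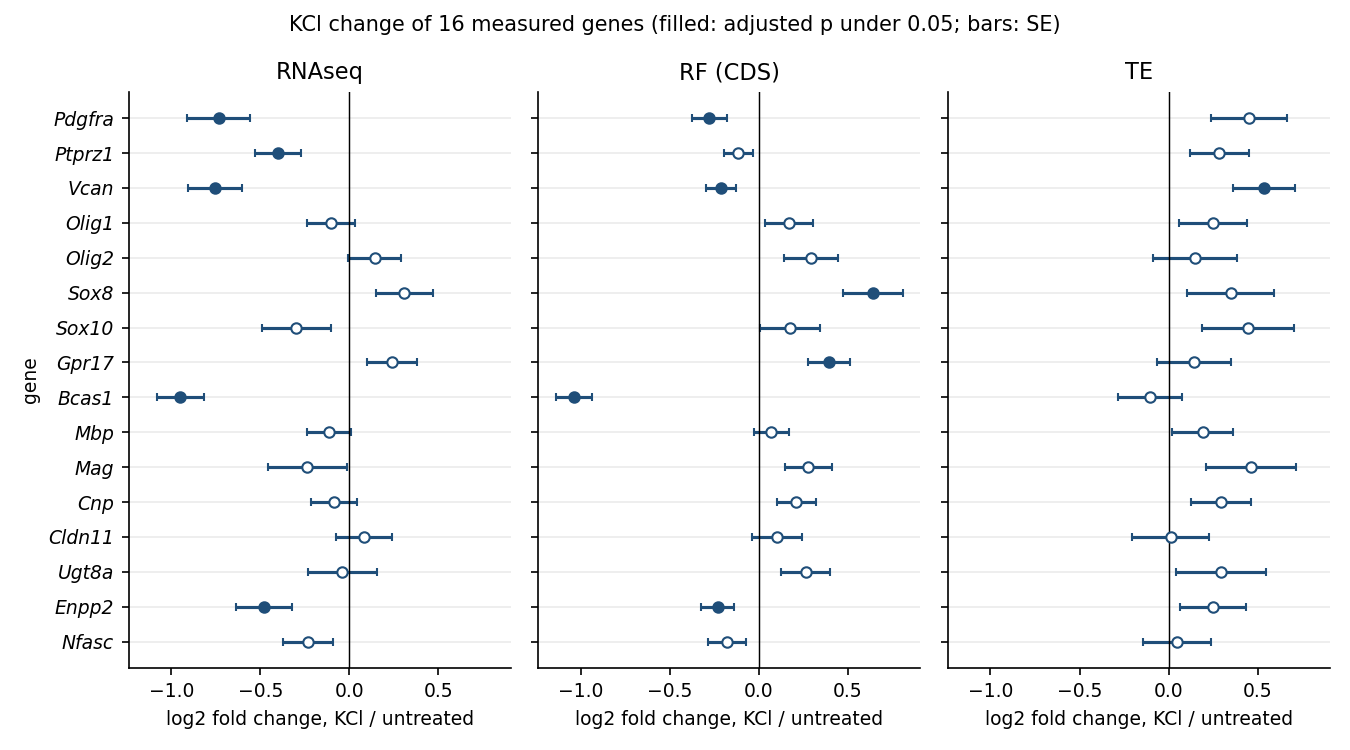
Log2 fold change (KCl over untreated) of the 16 measured genes in RNAseq, RF and TE, with approximate standard errors. Filled circles have an adjusted p under 0.05. In RNAseq the filled circles are Pdgfra, Ptprz1, Vcan, Bcas1 and Enpp2, all below 0, in RF Sox8 and Gpr17 are filled above 0, and in TE only Vcan is filled.

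All 3 measured surface and matrix genes of precursors fell in RNAseq, and Pdgfra and Vcan also fell in RF. Pdgfra (chr5:75152306-75198215), the receptor through which PDGF drives precursor division, had RNAseq values of 122, 82.7 and 96.9 normalized CPM in untreated cultures and 63.3 and 57.5 with KCl. Both KCl cultures lay below all untreated ones, which in RNAseq held for 27.2% of all measured transcripts. The fall was -0.73 ± 0.18 (edgeR adjusted p = 0.00128), and it was called in 15 of 15 alternative settings. On the CDS the footprints were 274, 271 and 258 normalized CPM against 224 and 220, again without overlap (31% of all in RF lay below in this way). That fall of -0.28 ± 0.10 (edgeR adjusted p = 0.023) was called in 7 of 14 settings and was lost without culture 1 (adjusted p = 0.0631), culture 4 (0.109) or culture 5 (0.198). The TE of Pdgfra, 6.60 and 7.04 with KCl, lay above all 3 untreated values but did not pass the test (0.45 ± 0.21, edgeR adjusted p = 0.237).

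Vcan, the matrix proteoglycan versican (chr13:89655312-89742509), had RNAseq values of 344, 240 and 239 normalized CPM, which stood at 173 and 151 with KCl. Untreated culture 1 was the highest, and the KCl cultures lay below all of them. The fall was -0.76 ± 0.15 (edgeR adjusted p = 1.43e-04). Footprints of 620, 710 and 667 normalized CPM stood against 590 and 558, a fall of -0.21 ± 0.09 (edgeR adjusted p = 0.0456) that was called in 4 of 14 alternative settings and was lost without culture 2 (adjusted p = 0.089), culture 3 (0.0741), culture 4 (0.133) or culture 5 (0.368). TE was 2.12, 3.46 and 3.14 in untreated cultures and 3.91 and 4.19 with KCl. This made Vcan the gene of the 16 whose TE rose (0.53 ± 0.17, edgeR adjusted p = 0.0379). It was called in 4 of 15 alternatives. Without culture 1, whose TE was the lowest, the change was 0.31 (adjusted p = 0.244), without culture 4 it was 0.60 (0.218) and without culture 5 it was 0.47 (0.524), while without the culture block it was 0.54 (0.0548). Its 4 measured transcripts share reads and gave TE adjusted p-values of 0.0379, 0.0701, 0.0354 and 0.443 in the same edgeR fit.

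Ptprz1, a receptor phosphatase of precursors that astrocytes also make, had 848, 720 and 696 normalized CPM in RNAseq and 569 and 574 with KCl. Its fall of -0.40 ± 0.13 (edgeR adjusted p = 0.0128) was called in 11 of 15 settings, not without culture 4 (adjusted p = 0.0759) or culture 5 (0.0758). Footprints, 1557, 1829 and 1554 against 1537 and 1504 normalized CPM, gave -0.12 (edgeR adjusted p = 0.262). Cspg4, which encodes the NG2 proteoglycan and is shared with pericytes, lay below the RPKM threshold. Cspg4 footprints rose from 59.6, 49.4 and 43.6 normalized CPM to 77 and 66.6 (0.44 ± 0.15, edgeR adjusted p = 0.0194), while RNAseq, with 60, 76 and 63 reads against 45 and 70, overlapped. This rise was called in 4 of 10 settings and was lost without culture 3 (adjusted p = 0.0694), culture 4 (0.26) or culture 5 (0.0749).

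Of 11 measured astrocyte markers, 4 fell in RNAseq (36.4%, beside 33% of all), 4 rose and 1 fell in RF (45.5%, beside 40.9%), and the TE of Aqp4 (0.87, edgeR adjusted p = 1.57e-05) and Slc1a3 (0.63, edgeR adjusted p = 0.00449) rose. Their summed RNAseq level was 10670 to 11700 normalized CPM in untreated cultures and 9517 and 9728 with KCl, whereas their summed RF level was 16130 to 16420 against 18250 and 18380. The summed RF level of 9 listed fibroblast and pericyte markers, 5 of them measured, was 1451 to 1957 normalized CPM in untreated cultures and 1028 and 1145 with KCl. Most of that sum was Col1a1 (773 to 1197 against 316 and 457) and Col3a1 (375 to 585 against 262 and 290), while Dcn rose in RF (0.24, edgeR adjusted p = 0.0406). The pericyte gene Pdgfrb, below the threshold, had 18.3, 19.0 and 19.7 normalized CPM in RNAseq against 8.78 and 9.39. The part of either cell type in the values of Ptprz1, Vcan, Pdgfra and Cspg4 was not tested.

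None of the lineage transcription factors passed the test in RNAseq, and Sox8 rose in RF. Sox8, a Sox factor that acts beside Sox10 in the lineage, had RF values of 68.0, 54.0 and 40.3 normalized CPM in untreated cultures and 79.1 and 96.5 with KCl. Both KCl cultures were higher than all untreated ones, as were those of 30.2% of all transcripts in RF. The rise was 0.64 ± 0.17 (edgeR adjusted p = 0.00361) and was called in 12 of 13 settings, not without culture 5 (0.47, adjusted p = 0.178). In RNAseq Sox8 had 77.8, 85.0 and 90.8 normalized CPM against 98.6 and 111, also without overlap, at 0.31 ± 0.16 (edgeR adjusted p = 0.137). Olig2 footprints of 63.7, 52.4 and 55.2 normalized CPM stood against 69.4 and 71.4 and did not pass (0.29, edgeR adjusted p = 0.133). Olig1 and Sox10, the factor that switches on myelin genes, overlapped between the groups in RNAseq, RF and TE. Nkx2-2, a homeodomain factor of differentiating precursors, had 48, 46 and 53 RNAseq reads and 30 and 36 with KCl, both below the untreated counts, and did not pass (-0.55, edgeR adjusted p = 0.238).

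The 2 measured genes of the committed stage went in opposite directions. Bcas1 (chr2:170347148-170427828), a marker of newly formed oligodendrocytes, had 487, 515 and 588 normalized CPM in RNAseq and 274 and 275 with KCl. Its footprints fell with it, from 310, 325 and 307 to 145 and 159 normalized CPM. No KCl value came near an untreated one in either assay. The changes were -0.95 ± 0.13 in RNAseq (edgeR adjusted p = 2.36e-07) and -1.04 ± 0.10 in RF (edgeR adjusted p = 3.58e-09), and they ranged over all alternatives from -1.03 to -0.85 and from -1.15 to -0.96. TE overlapped (-0.10, edgeR adjusted p = 0.836). All 3 measured Bcas1 transcripts, which share reads, were called in both assays.

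Gpr17, an orphan receptor of committed precursors, had RF values of 130, 118 and 145 normalized CPM against 177 and 163. This rise of 0.39 ± 0.12 (edgeR adjusted p = 0.009) was called in 12 of 14 settings and was lost without culture 4 (0.34, adjusted p = 0.103). Its RNAseq values of 138, 158 and 153 against 181 and 172 did not overlap either, at 0.24 ± 0.14 (edgeR adjusted p = 0.206). Of the 3 genes of this stage below the RPKM threshold, the choline phosphodiesterase Enpp6 had 123, 73 and 56 RNAseq reads against 70 and 50, the tetraspanin Tspan2 had 128, 107 and 88 against 112 and 89, and the sialidase Neu4 had 12, 12 and 16 against 19 and 22. None of the 3 passed in RNAseq, RF or TE, although the KCl cultures of Neu4 lay above the untreated ones in RNAseq and RF.

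**Figure D5:**
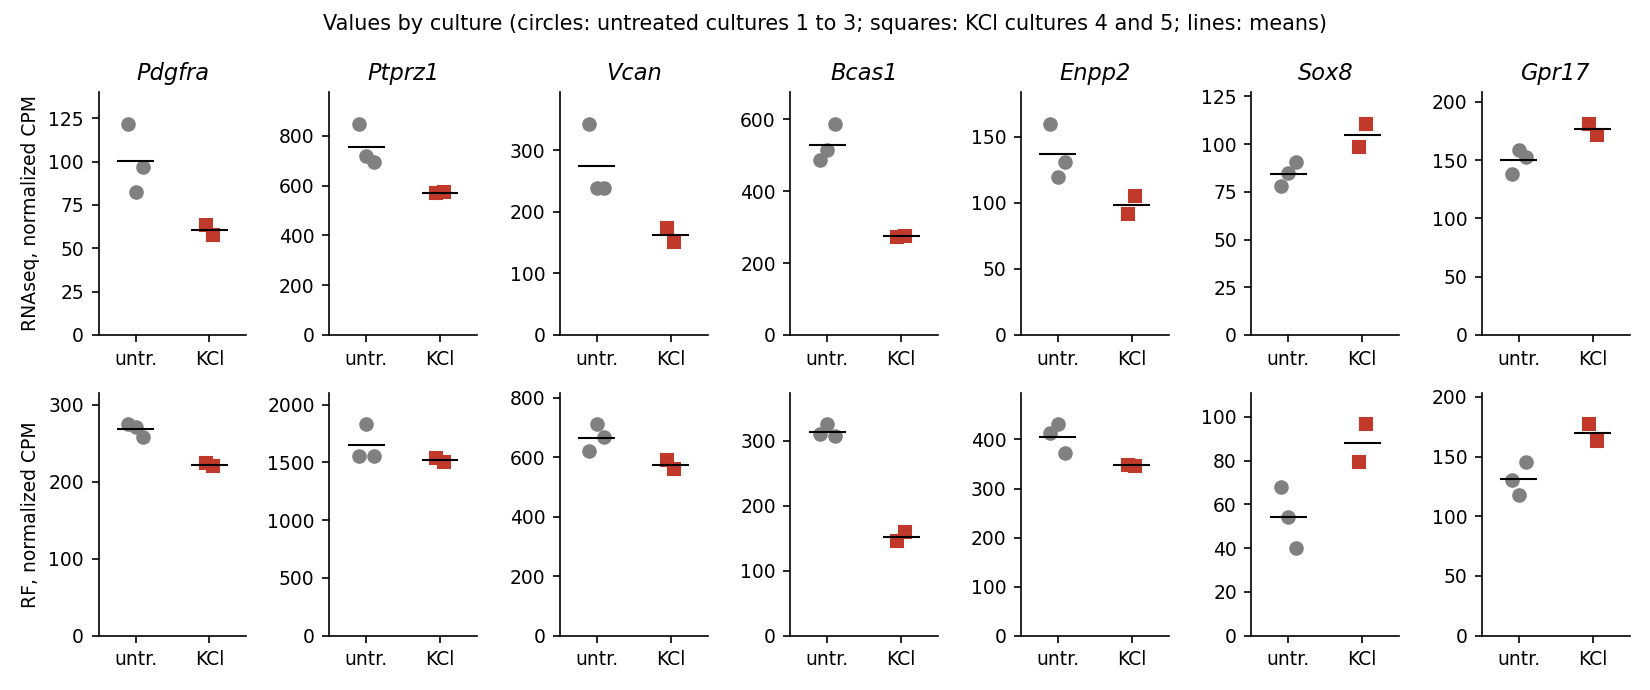
Normalized CPM by culture in RNAseq (top) and RF (bottom) for the 7 measured genes called in either assay. Circles are the 3 untreated cultures, squares the 2 KCl cultures, lines the means. Relative to its level, Bcas1 shows the widest gap in both assays, with 487 to 588 against 274 and 275 in RNAseq.

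None of the myelin protein genes passed in any assay in the fits described. In other settings Cnp and Mag passed upward in RF, Opalin downward in RF, Mag upward in TE and Gpr37 upward in RNAseq. For the 4 measured ones the log2 changes were positive in RF and TE, but with library totals in place of the scaling Mbp (-0.03) and Cldn11 (-0.00) turned negative in RF and Cldn11 (-0.01) in TE. Mbp had 853, 729 and 765 normalized CPM in RNAseq and 731 and 713 with KCl, and footprints of 282, 284 and 247 against 277 and 296. Both overlapped (-0.12, edgeR adjusted p = 0.512, and 0.07, edgeR adjusted p = 0.593). For Cnp the footprints of 491, 374 and 492 normalized CPM overlapped with 485 and 551 (0.21, edgeR adjusted p = 0.125), and its TE of 2.72 and 3.07 lay above the untreated 2.52, 2.11 and 2.59 without passing (0.30, edgeR adjusted p = 0.366). Mag had 125, 101 and 115 normalized CPM in RF against 122 and 150 (0.28, edgeR adjusted p = 0.0902). The RF call of both hung on the setting. Both passed with no filter beyond 1 read, the fit used for the genes below the threshold (edgeR adjusted p = 0.0136 for Cnp and 0.0335 for Mag), with filterByExpr (0.0236 and 0.0295) and without culture 1 (0.0454 and 0.0395). Without culture 1 the TE of Mag passed as well (0.80, adjusted p = 0.0288). Cldn11 barely moved (RNAseq 0.08, RF 0.10, TE 0.01).

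Of the myelin genes below the RPKM threshold, Mog, a glycoprotein of the outer myelin surface, had 14 to 27 RNAseq reads per library and Mobp 68 to 115, with overlapping groups. Opalin, a membrane protein of mature cells, had 18, 7 and 3 RNAseq reads against 6 and 1, and footprints of 19, 10 and 0 against 0 and 1 (edgeR adjusted p = 0.075). With library totals this fall in Opalin footprints passed (-2.90, edgeR adjusted p = 0.0476). Ermn, a cytoskeletal protein of mature oligodendrocytes, had no more than 8 RNAseq reads in any library. Gpr37, a receptor of maturing cells, had RNAseq values of 4.94, 4.82 and 9.82 normalized CPM against 9.43 and 12.9 (0.78, edgeR adjusted p = 0.119), which passed without culture 3 (1.19, adjusted p = 0.0303).

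Among the enzymes of lipids and metabolites, Enpp2, the autotaxin that makes lysophosphatidic acid, fell in both assays. RNAseq gave 160, 120 and 131 normalized CPM against 91.6 and 105 (-0.48 ± 0.16, edgeR adjusted p = 0.0172), and the call was lost without culture 1 (-0.36, adjusted p = 0.0583) or culture 4 (-0.39, adjusted p = 0.185). Footprints of 413, 431 and 373 normalized CPM stood above 349 and 347 (-0.23 ± 0.09, edgeR adjusted p = 0.0403), a call kept in 6 of 14 settings and lost without culture 1 (adjusted p = 0.08), culture 4 (0.178) or culture 5 (0.246). KCl cultures lay below the untreated ones in both. Ugt8a did not pass, with RF values of 94.2, 79.0 and 84.3 against 95.1 and 109 normalized CPM (0.26, edgeR adjusted p = 0.13).

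Gal3st1, which adds the sulfate that turns galactosylceramide into sulfatide, had CDS footprints numbering 11, 15 and 2 without KCl and 0 in both KCl cultures. Set against a floor of 3 counts over the KCl group, its pooled 1.84 normalized CPM was at least 2.49-fold higher than with KCl (edgeR adjusted p = 0.0114). Without culture 4 (adjusted p = 0.0631) or culture 5 (0.243) it did not pass. RNAseq reads were 13, 20 and 23 against 8 and 7, also without overlap, at -1.28 ± 0.54 (edgeR adjusted p = 0.0804), which passed without culture 1 (-1.51, adjusted p = 0.0321). Of the RF values, 28 footprints in all carry the comparison. Fa2h, the fatty acid hydroxylase of myelin lipids, and Aspa, which splits N-acetylaspartate, overlapped in RNAseq and RF. Of the axoglial adhesion genes, Nfasc overlapped in RNAseq (-0.23, edgeR adjusted p = 0.218). Its footprints of 207, 213 and 209 normalized CPM lay above 172 and 196 without passing (-0.18, edgeR adjusted p = 0.184), and passed with library totals (-0.28, adjusted p = 0.0397) and with at least 100 reads in every library (-0.29, adjusted p = 0.0275). Cntn2 had 309, 218 and 62 footprints against 52 and 129 at unequal depth, with a log2 change of 0.16 (edgeR adjusted p = 0.592). The cultures also held neurons, whose part in the Nfasc and Cntn2 values was not tested.

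Taking the 16 measured genes as a list, the sign of the TE change was positive for 15, Bcas1 being the exception, and for 14 when library totals replaced the scaling. It was positive for 8 of the 11 with at least 100 reads in every library, and for 22 of 30 once the genes below the RPKM threshold entered, whose own median was 0.09. The median TE change was 0.27 on the log2 scale, beside 0.01 for all measured transcripts, 51.1% of which were positive. KCl cultures lay above all untreated ones in TE for 5 genes (Pdgfra, Ptprz1, Vcan, Cnp and Ugt8a) and below them for 0, beside 14.2% and 19.4% of all. In RNAseq 12 of the 16 were negative, with a median of -0.17 against -0.00 for all. RF was positive for 10 (8 with library totals), with a median of 0.13 against -0.01. This direction hung on the filter. With at least 100 reads in every library RF was positive for 3 of 11, with a median of -0.23, and edgeR called 6 lower and 0 higher. With no filter beyond 1 read, over 30 genes, it called 5 higher and 2 lower. The members are not replicates, and TE shares its RNAseq values with the RNAseq change, so these counts are a description. The same direction in TE was seen in the medians of the measured astrocyte genes (0.33, 11 genes), microglia genes (0.35, 4 genes), neuron genes (0.27, 4 genes) and fibroblast and pericyte genes (0.28, 5 genes). Of the fibroblast and pericyte genes, however, 2 were called lower in TE and 0 higher (40% called, beside 5.8% of all).

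A further list of 32 genes known from oligodendrocytes and their precursors gave a median TE change of 0.01. Of its 25 listed genes 11 were measured, with 0 TE calls by edgeR. Pllp, a plasma membrane proteolipid, fell in both assays (RNAseq -0.69, edgeR adjusted p = 0.024, and RF -0.84, edgeR adjusted p = 0.0336). So did Lpar1, a receptor for the lysophosphatidic acid that Enpp2 makes (RNAseq -0.56, edgeR adjusted p = 0.0155, and RF -0.57, edgeR adjusted p = 0.00321). The myelin glycoprotein Omg rose in RNAseq (0.68, edgeR adjusted p = 0.0277). The footprints of C1ql1, a secreted precursor protein, fell from 21.1, 17.9 and 24.4 normalized CPM to 8.00 and 8.81 (-1.25, edgeR adjusted p = 0.00138) while its RNAseq values overlapped (TE -1.04, edgeR adjusted p = 0.0504).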

How the data were processed

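Reads were trimmed with Trimmomatic 0.32, ribosomal RNA was removed with STAR 2.3.1z8, the rest were aligned with Bowtie2 2.2.2 to the mouse transcriptome, and the authors deposited raw read counts per transcript region made with BEDTools 2.20.1. Reads with several alignments were kept, so transcripts of a gene share reads. The authors removed KCl replicate 3. Here, counts were matched to GENCODE M21 (GRCm38) for names and lengths (22172 of 22534 transcripts, 98.4%). Tests used edgeR 4.0.16 in R 4.3.3 (quasi-likelihood, robust, TMM within each assay, threshold 0.05), with 3 untreated against 2 KCl cultures for RNAseq and RF, and for TE the assay-by-treatment interaction over all libraries, blocked by culture. Standard errors are approximate, derived from each log2 change and its F value. The block follows from the shared lysate. Deviations of both assays of a culture correlated between -0.075 and 0.066. Scripts were tested on simulated data. An exact permutation over 3 and 2 cultures has 10 splits and cannot go below 0.1. Alternatives included DESeq2 1.42.0. All genes of the set are named, of other lists those called, apart from a result not reported here. The genes and lists were chosen with earlier results of these data known.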

Additional observations from a re-analysis of the deposited data

How the results depend on the processing

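Transcripts called numbered 2395 in RNAseq (1300 higher, 1095 lower), 2971 in RF (1511 higher, 1460 lower) and 421 in TE. With no filter beyond 1 read they were 4141 (RNAseq) and 5311 (RF), with filterByExpr 4192 and 5336, with at least 100 reads in every library 734, 1085 and 88 (TE), with 1 transcript per gene 1441, 1744 and 262, with counts summed over the transcripts of a gene 1426, 1671 and 240, with RNAseq reads on the CDS 1529 (RNAseq) and 266 (TE), and with DESeq2 174 (TE). With no replicate block TE gave 420, and the block otherwise changed the call of Vcan alone among the genes of the set. Library totals shifted the median of all transcripts to -0.084 in RNAseq and -0.113 in RF, called 1098 RNAseq transcripts higher against 1483 lower, called 1166 RF transcripts higher against 1941 lower, and called 8 genes of the set in RF. Of the genes of the set, RF calls numbered 6 and became 3 with DESeq2 and 3 with all 10 libraries in 1 fit. The TE call numbered 1 and became 0 with DESeq2, no filter, filterByExpr, at least 100 reads, 1 transcript per gene, summed counts, RNAseq reads on the CDS or no replicate block. Median untreated TE was 2.401 and became 3.724 with RNAseq reads on the CDS. Leaving out 1 culture gave 1638 to 2637 RNAseq, 1698 to 3233 RF and 70 to 547 TE calls, and in the set 3 to 5 in RNAseq, 2 to 6 in RF, 0 to 1 in TE and a median TE of 2.363 to 2.464. A lone KCl culture was there assumed to vary like the untreated ones. Of the single gene changes under alternatives, 1050 kept their side of the threshold, 53 lost it, 15 gained it and 0 called values changed sign. DESeq2 gave no adjusted p for Gal3st1 in RF, and Opalin and Ermn have no TE with RNAseq reads on the CDS, because a culture had 0 such reads. The cause of these moves was not tested, except that fewer or more transcripts entered the fits with other filters. The shallow RF libraries of cultures 3 and 4 limit the genes below the RPKM threshold, whose reads ran from 1 to 128 per library in RNAseq and 0 to 445 in RF.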
